A study of Arabidopsis thaliana with 18 samples.

Results

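Flowering time in Arabidopsis is set by a small network of repressors, photoperiod genes, integrators and age-dependent SPL genes, and 10 genes of that network were followed here in whole rosettes with raised or lowered SnRK1, the plant kinase that responds to low energy. The 10 were taken by gene identifier from the deposited table of 32833 genes: FLC (AT5G10140), SVP (AT2G22540), CO (AT5G15840), FT (AT1G65480), SOC1 (AT2G45660), FUL (AT5G60910), SPL3 (AT2G33810), SPL4 (AT1G53160), SPL5 (AT3G15270) and SPL9 (AT2G42200). The groups were SnRK1α1-OE, which carries 35S::SnRK1alpha1 in the Col-0 background, sesquiα2, a progeny of GABI_579E09 and WiscDsLox384F5 labelled snrk1α1-/- snrk1α2+/-, and wild-type Col-0. Rosettes were 20 d old, grown with 12 h of light and 12 h of darkness at 160 µmol light intensity, and were harvested at the end of the night (EN, ZT24) or the end of the day (ED, ZT12), with 3 libraries for each of the 6 groups. The methods describe each library as a pool of whole rosettes, so the spread given below is between pools. Seedlings of sesquiα2 were selected on BASTA plates for 6 d before transfer to soil, whereas Col-0 and SnRK1α1-OE seeds were sown on soil, so genotype and early growth cannot be told apart in any comparison of sesquiα2 with Col-0. The 35S promoter is active in most cell types, and sesquiα2 keeps 1 functional SnRK1α2 copy.

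FLC and SVP are MADS-domain repressors that bind together and hold down FT and SOC1. In long days CO protein, stable only in light at the end of the day, turns on FT in leaf phloem companion cells, and FT protein moves to the shoot apex, where SOC1, FUL and the SPL genes act. SPL transcripts are cut and their translation is held down by miR156, whose amount declines as a plant ages. Col-0 has a loss-of-function allele of the FLC activator FRI and flowers early without cold, so FLC is known to be low in it.

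The 4 SPL genes differ from the other 6 in carrying a site for miR156, and the sites are shown because they are the sequence feature that joins this group. They were read from the RefSeq annotation of TAIR10.1, whereas the deposited values were made on TAIR10. Capitals mark bases 2 to 8 of the microRNA, its seed, and the stretch of each transcript that pairs with it.
miR156: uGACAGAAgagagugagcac
SPL9: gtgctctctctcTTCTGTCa
SPL4: ctgctctctctcTTCTGTCa
SPL3: ttgcttactctcTTCTGTCa
SPL5: ccgctctctctcTTCTGTCa
The mature sequence is the same in 6 annotated precursors, MIR156a to MIR156f. All 4 sites hold the full seed match and differ in the 5′ part, with 19 of 20 bases paired in SPL9, 18 in SPL4, 18 in SPL3 and 17 in SPL5. The SPL9 site lies in the coding sequence (chr2:17589066-17589085, plus strand). The other sites lie in the 3′ UTR, at chr1:19807090-19807109 (plus strand) in SPL4, chr2:14305878-14305897 (plus strand) in SPL3 and chr3:5140598-5140617 (minus strand) in SPL5. The best window of the same length in the 6 other genes had 6 to 9 unpaired bases. Their transcripts were not searched for the seed letters alone. In the window from 250 bases before each gene start to 50 after it, the evening element AAAATATCT and the G-box CACGTG were each found once in the FLC promoter, on either strand, and in none of the other 9 promoters. Over 27444 promoters the share holding them was 2.82% for the evening element and 7.68% for the G-box. These are matches of letters and not sites shown to be bound.

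Values below are the deposited normalized read counts, scaled by the submitters so that each library total is nearly the same (37929523 to 37930213), which makes 1 unit close to 1 read. Recovered library sizes were 35050875 to 40416615 reads. SnRK1α1 itself (AT3G01090) was at 28710 to 32680 in SnRK1α1-OE against 1685 to 1991 in Col-0, and at 1672 to 1950 in libraries labelled sesquiα2, where the count over the whole gene does not resolve the insertion and so does not check the label. SnRK1α2 (AT3G29160) was at 905 to 1069 in sesquiα2 against 1405 to 1506 in Col-0 at ED, and at 1161 to 1275 against 1203 to 1484 at EN. Leaf mesophyll markers (RBCS1A, CA1, RCA, LHCB2.2 and CYFBP) summed to 926000 to 1790000 per library, and 8 root markers to 2645 to 3737. Of the root markers, PYK10 (1355 to 2573 units) and SCR (816 to 1402) had signal in every library, the root hair genes EXPA7 and RHD6 had 0 reads in all 18, and the other 4 had at most 20 reads. Of 12 shoot apex markers, CLV1 (1286 to 2687 units) and ANT (375 to 1346) were highest and made up most of the sums given below. STM reached 262 units and KNAT1 203, while WUS had at most 2 reads and CLV3 at most 5 reads in any library. Of 7 floral organ genes AP3 had at most 4 reads, PI at most 8 reads, and SEP4 (409 to 833 units) was the 1 above 28 reads. The clock genes moved between the times in all genotypes: of 8 tested, 2 (LHY and CCA1) were higher and 6 lower at EN than at ED in each. Replicate 1 stood apart from its group in Col-0 at ED (chi-square per gene 94.1 and 59.1 against the other libraries, which differed from each other by 13.4), in Col-0 at EN (65.9 and 76.3, against 7.88) and in SnRK1α1-OE at EN (45.5 and 61.7, against 14.3), and results that turn on these libraries are given with and without them.

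Per kb of exon the 10 genes lay between 1.62 and 1210 units. SVP was highest, with a mean over the 18 libraries of 1210 units per kb, above 87.3% of the 25946 genes with any signal. SOC1 followed at 493 units per kb, and no library of SVP (842 to 1910 units per kb) overlapped with any of SOC1 (406 to 628). SPL9 (103 units per kb) and SPL4 (97.0) were next, with libraries at 27.5 to 206 and 54.4 to 178 units per kb. Their order changed with the time of day. At ED the group means of SPL9 were 127 units per kb in SnRK1α1-OE, 176 in sesquiα2 and 147 in Col-0. Those of SPL4 were 93, 75.8 and 60.7. At EN SPL9 was at 39.9, 78.8 and 46.7 in the same order, under SPL4 at 150, 104 and 98.7. FUL was at 48.1 units per kb. CO (17.9), SPL5 (17.2), FLC (17) and FT (12.5 units per kb) formed a low set whose ranges overlapped, and SPL3 was last at 1.62 units per kb.

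**Figure D1:**
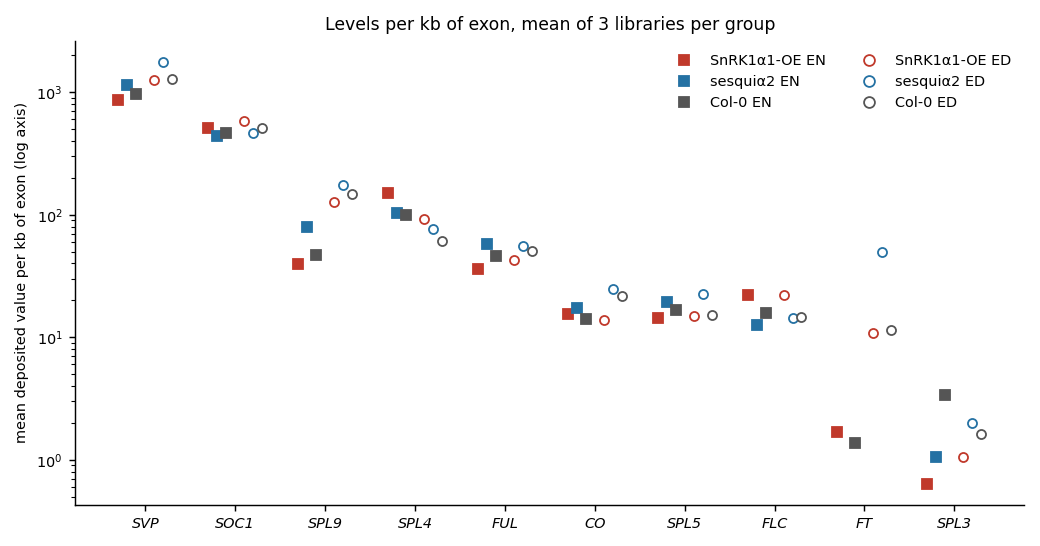
Mean deposited value per kb of exon (log axis) of each gene in each group, with squares for EN and circles for ED (n = 3 libraries per group). SVP and SOC1 sit above all others, FT spans from 49.6 units per kb in sesquiα2 at ED to 0 in sesquiα2 at EN (0 cannot be drawn on this axis), and SPL3 is lowest.

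How far a low value reflects a low transcript was limited for SPL3 and FLC by the annotation. An antisense lncRNA, AT2G33815, shares 955 of the 981 exonic bases of SPL3 (97.3%), and another, AT5G01675, shares 804 of the 1180 exonic bases of FLC (68.1%). Among all protein-coding genes, 550 of 561 with over 90% of exonic bases shared with another gene had a mean value under 10, as did 367 of 550 with over 50% to 90% shared, against 6492 of 19821 with none shared. The strand setting used for counting is not given in the sources used here, so a low transcript and reads lost to a shared exon cannot be told apart for SPL3 and FLC. The shared part was 25.4% for CO (AT5G15843 and AT5G15845), 25.5% for SPL5 (AT3G15260), 14.4% for SPL4 (MIR156i) and 3.82% for SPL9 (MIR156j), all antisense, and nothing overlapped SVP, FT, SOC1 or FUL. Of these neighbours, AT3G15260 had 1444 to 1999 units and AT5G15845 6.56 to 32.6 units, and the others at most 2.01 units.

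**Figure D2:**
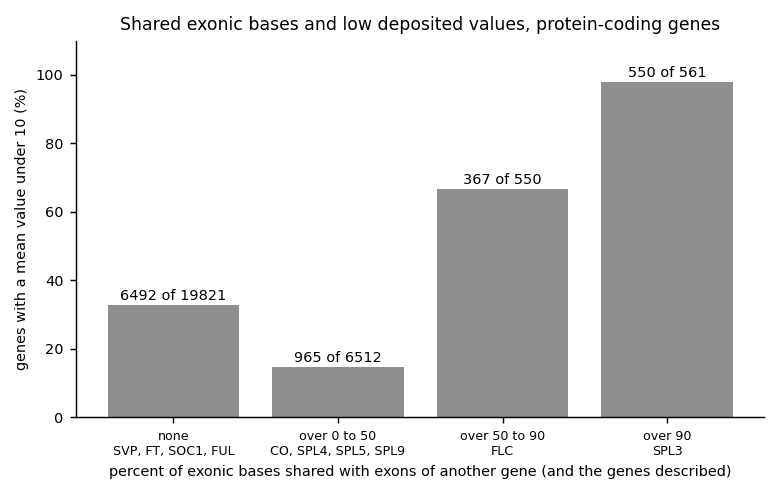
Percent of protein-coding genes with a mean deposited value under 10, by the percent of exonic bases shared with exons of another gene, with the described genes named under their class. The bar of the class of SPL3 stands at 98.0%, that of FLC at 66.7% and that of the class with no shared base at 32.8%.

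The first question was how the 10 genes differed between the end of the night and the end of the day within each genotype. SPL9 and SVP were lower at EN in all 3 genotypes, although the call for SVP in Col-0 was lost under 5 of 14 alternatives. SPL4 was higher at EN in SnRK1α1-OE, and FT had no reads at EN in sesquiα2. A gene passed at a Benjamini-Hochberg adjusted p under 0.05 over all genes tested in limma on log2(value + 1), after a filter on low values that SPL3 never passed and that FT passed only where sesquiα2 at ED took part. By this rule 3 of 8 tested genes passed in SnRK1α1-OE (1 higher, 2 lower), 3 of 9 in sesquiα2 (all lower, FT among them, which entered only through the group where it is high) and 2 of 8 in Col-0 (both lower). Of all genes tested, 45.5% passed in SnRK1α1-OE, 49.0% in sesquiα2 and 45.0% in Col-0, so the members' shares (37.5% in SnRK1α1-OE, 33.3% in sesquiα2 and 25% in Col-0) were not above those of the transcriptome. The median log2 fold change of all tested genes was -0.03 in SnRK1α1-OE, -0.03 in sesquiα2 and -0.16 in Col-0, beside -0.15 in SnRK1α1-OE, -0.21 in sesquiα2 and -0.15 in Col-0 for the tested members. The EN and ED libraries did not overlap for 3 of 8 tested members in SnRK1α1-OE, 5 of 9 in sesquiα2 and 4 of 8 in Col-0, beside 55.3% of all genes in SnRK1α1-OE, 58% in sesquiα2 and 55.6% in Col-0.

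**Figure D3:**
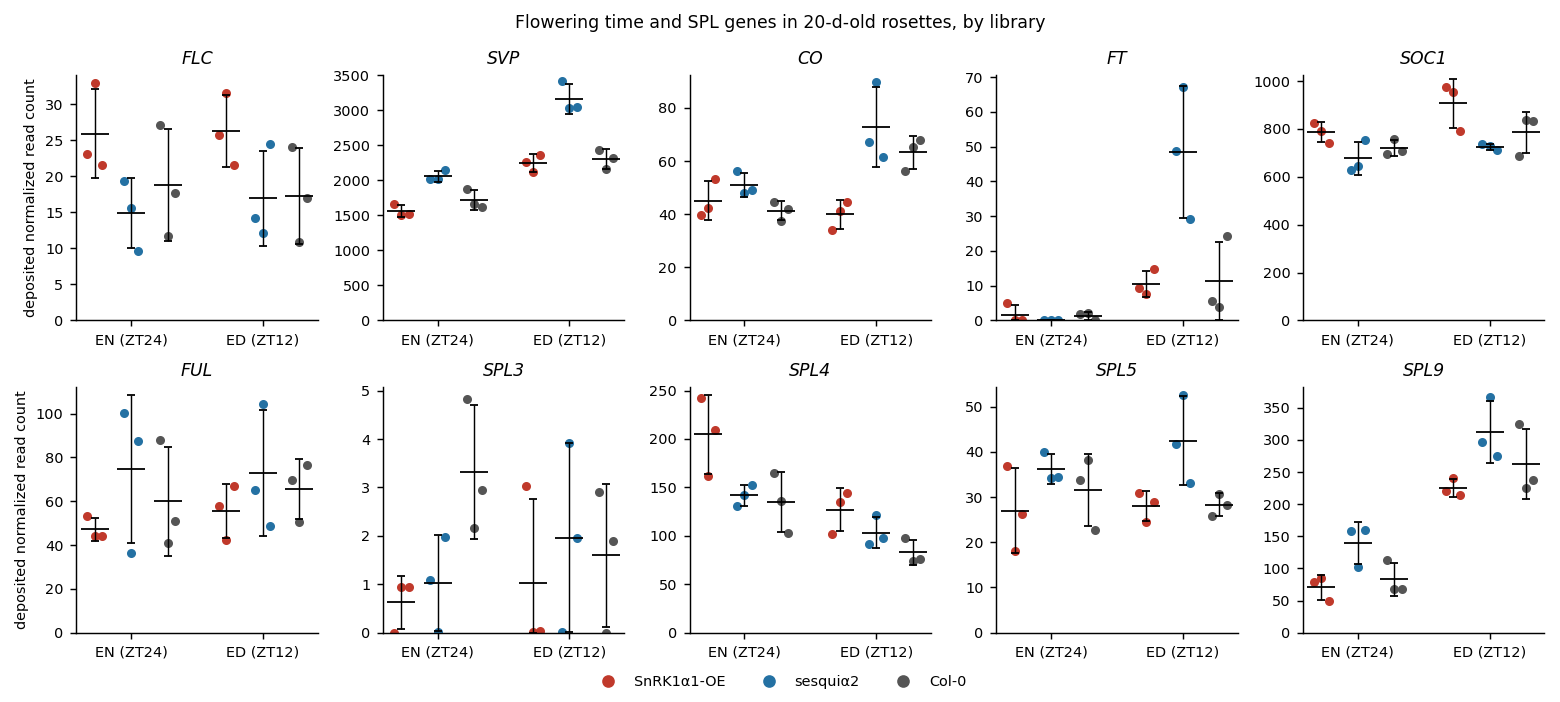
Deposited normalized read count of each gene in every library (points), with the mean and SD of 3 libraries per group (black; lower bars end at 0). In SPL9 all 9 EN libraries (48.9 to 160) lie under all 9 ED libraries (215 to 367), whereas the EN and ED libraries of FLC, FUL and SPL5 overlap in every genotype.

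SVP, the partner of FLC, was abundant and varied little between replicates. Its values were 1656, 1509 and 1513 at EN against 2258, 2115 and 2362 at ED in SnRK1α1-OE (log2 fold change -0.53, SE 0.107, adjusted p = 0.00339). In sesquiα2 they were 2012, 2012 and 2148 at EN against 3413, 3037 and 3045 at ED (log2 fold change -0.62, SE 0.0803, adjusted p = 1.84e-04). All libraries at EN lay under all at ED in both lines, as they did in Col-0. The Col-0 values were 1875, 1666 and 1617 at EN against 2437, 2155 and 2319 at ED (log2 fold change -0.42, SE 0.106, adjusted p = 0.0141). The call in Col-0 was lost under 5 of 14 alternatives: median-ratio scaling (-0.26, adjusted p = 0.0795), edgeR (-0.29, adjusted p = 0.0503), and leaving out ED replicate 3 (adjusted p = 0.0618), EN replicate 2 (adjusted p = 0.0608) or EN replicate 3 (adjusted p = 0.0591).

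FLC, the other repressor, was at 9.70 to 33.0 units in all 18 libraries. At EN it was at 23.2, 33.0 and 21.6 in SnRK1α1-OE, at 19.4, 15.6 and 9.70 in sesquiα2 and at 27.1, 11.7 and 17.6 in Col-0. At ED it was at 25.8, 31.5 and 21.6 in SnRK1α1-OE, at 14.2, 12.1 and 24.5 in sesquiα2 and at 24.1, 10.8 and 17 in Col-0. The groups overlapped in every comparison of FLC, and 10 to 35 reads per library stood behind these values.

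CO, the zinc-finger activator of FT, was at 44.4, 37.5 and 42.0 at EN against 56.3, 65.4 and 68.1 at ED in Col-0, without overlap (log2 fold change -0.60, SE 0.234, adjusted p = 0.0715). In sesquiα2 it was at 56.2, 47.8 and 49.1 at EN against 67.1, 89.8 and 61.5 at ED, again without overlap. In SnRK1α1-OE the times overlapped, at 39.6, 42.4 and 53.4 at EN against 34.1, 41.1 and 44.7 at ED. CO did not pass in any genotype. In Col-0 it passed when replicate 1 of both Col-0 groups was left out (-0.74, adjusted p = 0.0475) and when all 18 libraries shared one fit (-0.60, adjusted p = 0.0261). The phase of CO cannot be read from 2 times of day.

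FT, the florigen, showed the widest range of the 10 genes. In sesquiα2 it had 0 reads in all 3 libraries at EN, against 48.7, 67.2 and 29.2 units at ED (48, 70 and 30 reads). Against a floor of 3 reads per library FT was at least 15.9-fold lower at EN in sesquiα2. It met the filter there only through the ED libraries, where it is high, so its adjusted p is not given as support. In SnRK1α1-OE FT had 5, 0 and 0 reads at EN against 9, 7 and 14 reads at ED. In Col-0 it had 2, 2 and 0 reads at EN against 6, 4 and 25 reads at ED. All EN libraries of FT thus lay under all ED libraries in each genotype, but in SnRK1α1-OE and Col-0 it was too low for the filter. Without the filter it passed in SnRK1α1-OE, and with all 18 libraries in one fit it passed in SnRK1α1-OE and Col-0 too. These calls are not given as support either. In the fit on 18 libraries FT met the filter through ED libraries, where it is high, and it had at most 5 reads at EN. Markers of phloem companion cells, in which FT is made, summed to 21210 to 25810 at EN against 14110 to 19670 at ED in sesquiα2 (2 of 5 passed as higher). In SnRK1α1-OE they summed to 19920 to 21430 at EN against 11990 to 14520 at ED (3 of 5 passed as higher). In Col-0 they overlapped, at 20220 to 20900 at EN against 18820 to 22220 at ED. Their part in the FT values between the times was not tested.

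SOC1, the MADS-domain integrator of FT and gibberellin signals, was steady. Its values at EN were 826, 790 and 741 in SnRK1α1-OE, 630, 646 and 756 in sesquiα2 and 694, 757 and 706 in Col-0. At ED they were 976, 953 and 790 in SnRK1α1-OE, 736, 728 and 710 in sesquiα2 and 687, 838 and 832 in Col-0. Its highest group mean (906 ± 101, SnRK1α1-OE at ED; SD, n = 3) was 1.34 times its lowest (677 ± 68.3, sesquiα2 at EN), the smallest such ratio among the 8 genes for which it was computed, and it passed in no comparison.

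FUL, a MADS-domain gene of the apex and fruit, varied more between replicates than between groups. It was at 100, 36.2 and 87.5 at EN and at 65.0, 104 and 48.7 at ED in sesquiα2, while the other groups lay between 41.0 and 88.0 units. The within-group SD of FUL on the log2 scale was 0.492, against 0.0868 for SVP and 0.119 for SOC1.

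SPL9, which promotes the adult phase and inflorescence identity, had the clearest time difference after FT. It was at 78.3, 85.8 and 48.9 at EN against 220, 242 and 215 at ED in SnRK1α1-OE (log2 fold change -1.69, SE 0.234, adjusted p = 3.78e-04). In sesquiα2 it was at 158, 102 and 160 at EN against 298, 367 and 274 at ED (-1.17, SE 0.212, adjusted p = 0.00147). In Col-0 it was at 113, 67.8 and 68.6 at EN against 325, 225 and 237 at ED (-1.67, SE 0.263, adjusted p = 0.00178). All 9 EN libraries of SPL9 lay under all 9 ED libraries, and it passed under all 13 or 14 alternatives run in each genotype. Shoot apex markers were also lower at EN in Col-0, where they summed to 2280 to 2616 against 3117 to 3794 at ED, with 1 of 7 tested (CLV1; -0.39, adjusted p = 0.0318) passing and a median log2 fold change of -0.39. Their sums overlapped between the times in SnRK1α1-OE (2395 to 2752 at EN, 2306 to 2588 at ED) and in sesquiα2 (3305 to 3627 at EN, 2840 to 4244 at ED), and none passed there. Their part in the SPL9 values was not tested.

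SPL4, one of the small SPL genes that act downstream of FT at the apex, ran the other way. It was at 243, 162 and 209 at EN against 102, 135 and 144 at ED in SnRK1α1-OE (log2 fold change 0.68, SE 0.213, adjusted p = 0.0265). In Col-0 it was at 165, 136 and 103 at EN against 97.8, 74.3 and 76.4 at ED (0.68, SE 0.243, adjusted p = 0.0543). In sesquiα2 it was at 131, 142 and 152 at EN against 91.4, 121 and 97.7 at ED (0.46, SE 0.195, adjusted p = 0.0774). All EN libraries of SPL4 lay above all ED libraries in each genotype. The call was lost in SnRK1α1-OE without ED replicate 1, EN replicate 1 or EN replicate 3 (highest adjusted p = 0.0995). It was gained in Col-0 under 7 of 14 alternatives, among them the replicate block (adjusted p = 0.0265) and edgeR (adjusted p = 0.0218). It was also gained in Col-0 without ED replicate 1 (adjusted p = 0.0383) and without replicate 1 of both Col-0 groups (adjusted p = 0.0340), but not without EN replicate 1 alone. In sesquiα2 it was gained under 3 of 13 alternatives: median-ratio scaling (adjusted p = 0.0333), edgeR (adjusted p = 0.0368) and without ED replicate 2 (adjusted p = 0.0371).

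SPL5, the near relative of SPL4, did not follow it. It was at 36.8, 18.0 and 26.3 at EN and 30.8, 24.4 and 28.8 at ED in SnRK1α1-OE, at 34.2 to 40 units at EN and 41.6, 52.6 and 33.2 at ED in sesquiα2, and at 33.8, 38.1 and 22.7 at EN and 25.8, 30.8 and 28.3 at ED in Col-0. The times overlapped in all genotypes. SPL3 had 0 to 5 reads in every library and is described only by that limit. The 4 genes with a miR156 site therefore showed a fall (SPL9), a rise (SPL4), no call (SPL5) and no usable signal (SPL3). The rise of SPL4 passed the main rule in 1 genotype and was without overlap in each.

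**Figure D4:**
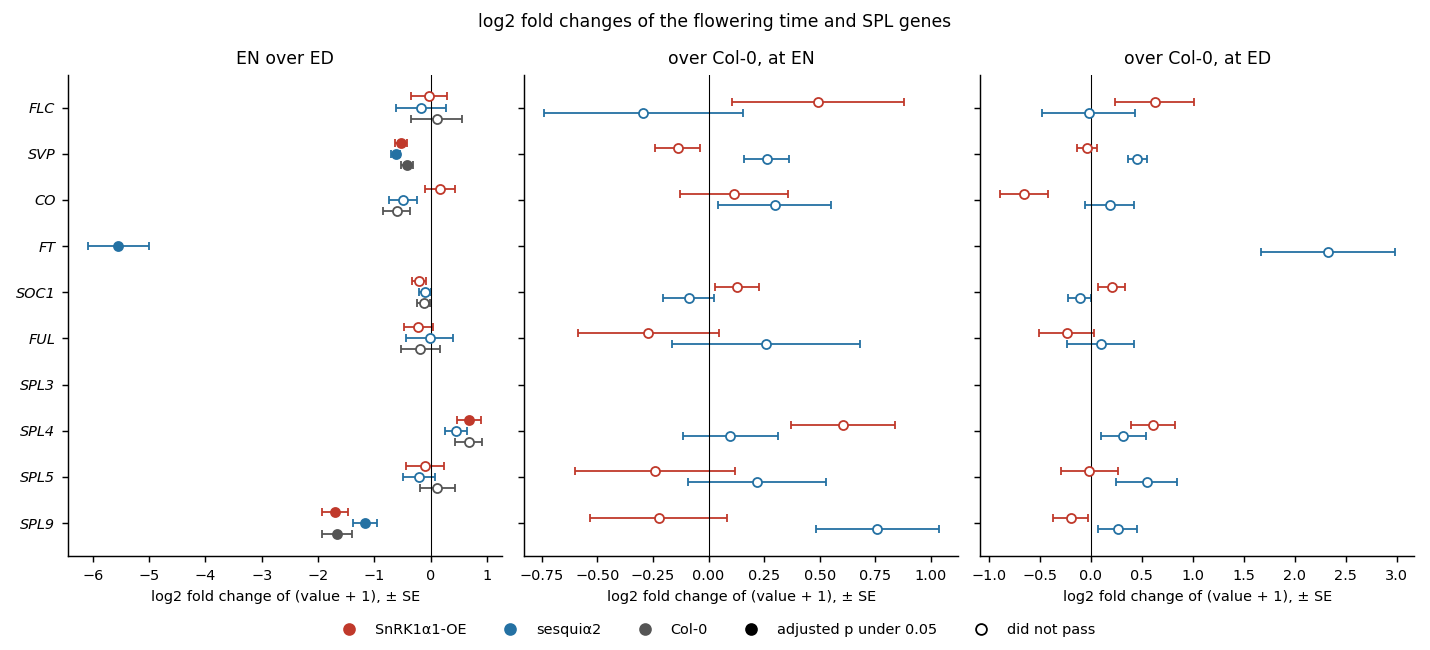
log2 fold change of (value + 1) ± SE for EN over ED in each genotype and for each line over Col-0 at EN and at ED (x scales differ; filled points passed an adjusted p of 0.05, open points did not, and untested genes have no point). SVP and SPL9 are filled at negative values in all genotypes for EN over ED, the FT point in sesquiα2 rests on 0 reads at EN and is set by the pseudocount, and no point is filled in the panels over Col-0.

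The second question was whether raised or lowered SnRK1 shifted these genes relative to Col-0 at the same time of day. None of the 10 passed in any of the 4 comparisons. Both lines were compared with the same 3 Col-0 libraries at each time. Across all genes, 0.276% passed for SnRK1α1-OE at ED, 0.0670% for SnRK1α1-OE at EN, 0.419% for sesquiα2 at ED and 2.95% for sesquiα2 at EN, so 0 of 8 or 9 genes is close to that background. An unadjusted p under 0.05 was reached by 2 of 8 members in SnRK1α1-OE at ED (CO and SPL4) and 1 of 8 at EN (SPL4). In sesquiα2 it was reached by 2 of 9 at ED (SVP and FT) and 2 of 8 at EN (SVP and SPL9). Of all genes, 4880 of 19576 reached it in SnRK1α1-OE at ED and 764 of 19408 at EN. For sesquiα2 these numbers were 2776 of 19587 at ED and 3683 of 19582 at EN. These members are named for description, and no call rests on this limit. The edgeR quasi-likelihood test on recovered reads called 0 members in the same comparisons.

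SVP was the member nearest to a call in sesquiα2. At ED its values of 3413, 3037 and 3045 in sesquiα2 all exceeded the Col-0 values of 2437, 2155 and 2319 (log2 fold change 0.46, SE 0.0931, adjusted p = 0.107). At EN the values of 2012, 2012 and 2148 in sesquiα2 exceeded 1875, 1666 and 1617 in Col-0 (0.26, SE 0.0994, adjusted p = 0.198). SVP passed at ED without Col-0 replicate 1 (0.50, adjusted p = 0.0308) and with all 18 libraries in one fit (adjusted p = 0.00870), and at EN without Col-0 replicate 1 (0.33, adjusted p = 0.0219). Over its alternatives the adjusted p ran from 0.00870 to 0.422 at ED and from 0.0219 to 0.542 at EN. Groups did not overlap for 3 of 9 tested members in sesquiα2 at ED (SVP, FT and SPL5) and for 2 of 8 at EN (SVP and CO). Of all genes this held for 20.4% at ED and 25.4% at EN. FT met the filter at ED only through sesquiα2. In SnRK1α1-OE the SVP values overlapped with Col-0 at both times.

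FT at ED was at 48.7, 67.2 and 29.2 in sesquiα2 against 5.60, 3.89 and 24.2 in Col-0, without overlap, as for the 20.4% of all genes given above (log2 fold change 2.33, SE 0.656, adjusted p = 0.199). FT met the filter here only through sesquiα2. The Col-0 libraries ranged from 4 to 25 reads, and no alternative took FT past the threshold (adjusted p 0.101 to 0.486). In SnRK1α1-OE the FT values of 9.30, 7.50 and 14.7 lay within the Col-0 range. The phloem companion cell markers summed to 14110 to 19670 in sesquiα2 against 18820 to 22220 in Col-0 at ED, and none of the 5 passed. In SnRK1α1-OE at ED they summed to 11990 to 14520, with 1 of 5 (SUC2, the companion cell sucrose carrier; -0.79, adjusted p = 0.03) lower than in Col-0. Their part in the FT values was not tested. In pooled rosettes fewer cells of a type and less RNA per cell cannot be told apart.

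SPL9 at EN was at 158, 102 and 160 in sesquiα2 against 113, 67.8 and 68.6 in Col-0, with overlap (log2 fold change 0.76, SE 0.276, adjusted p = 0.18). Without Col-0 EN replicate 1 it passed (1.0, adjusted p = 0.0173), and its adjusted p over all alternatives ran from 0.0173 to 0.522. Shoot apex markers, whose sums are mostly CLV1 and ANT, summed to 3305 to 3627 in sesquiα2 against 2280 to 2616 in Col-0 at EN. Of 8 tested markers 1 passed (CLV1), and their median log2 fold change was 0.56, against 0.10 for all genes. At ED the sums overlapped, at 2840 to 4244 in sesquiα2 against 3117 to 3794 in Col-0. Their part in the SVP and SPL9 values was not tested.

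SPL4 did not pass in SnRK1α1-OE at either time. At ED it was at 102, 135 and 144 in SnRK1α1-OE against 97.8, 74.3 and 76.4 in Col-0, without overlap (log2 fold change 0.61, SE 0.216, adjusted p = 0.148). At EN it was at 243, 162 and 209 against 165, 136 and 103, with overlap (0.61, SE 0.234, adjusted p = 1). CO at ED was at 34.1, 41.1 and 44.7 in SnRK1α1-OE against 56.3, 65.4 and 68.1 in Col-0, without overlap (-0.65, SE 0.236, adjusted p = 0.151). Groups that do not overlap were common at ED, where this held for 2 of 8 tested members and for 31.4% of all genes in SnRK1α1-OE against Col-0, while the median of all genes was at -0.12. Shoot apex markers summed to 2306 to 2588 in SnRK1α1-OE against 3117 to 3794 in Col-0 at ED, with a median log2 fold change of -0.46 and none of 7 passing. Their part in the SPL4 values was not tested.

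The difference between the effect at EN and at ED was tested on 12 libraries for each line. None of the 8 tested members passed for SnRK1α1-OE and none of 9 for sesquiα2, against 0.210% and 0.815% of all genes, and edgeR also called 0 members. The median of all genes in these tests was 0.145 for SnRK1α1-OE and 0.115 for sesquiα2 on the log2 scale. At an unadjusted p under 0.05 there was 1 member in each: CO for SnRK1α1-OE (0.77, SE 0.308, adjusted p = 0.199) and FT for sesquiα2 (adjusted p = 0.113). Of all genes, 4110 of 20041 were under that limit for SnRK1α1-OE and 3463 of 20122 for sesquiα2. The members' shares were thus not above those of all genes. FT met the filter here only through sesquiα2 at ED, where it is high. No fold change is given for FT, since sesquiα2 had 0 reads at EN and the value is set by the pseudocount. The time differences of SVP, SPL4 and SPL9 are therefore not shown to differ between the lines and Col-0.

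The wider flowering network was read from 10 lists of 125 genes around the members. Between EN and ED, 53.3% of tested list genes passed in SnRK1α1-OE (31 higher, 18 lower), 51.6% in sesquiα2 (28 higher, 21 lower) and 48.9% in Col-0 (25 higher, 20 lower), beside the 45.5%, 49.0% and 45.0% of all genes. In the photoperiod list 17 of 24 passed in each genotype, with 12 higher at EN in SnRK1α1-OE, 12 in sesquiα2 and 13 in Col-0. The CO repressor CDF2 was higher at EN by a log2 fold change of 4.94 in SnRK1α1-OE, 4.93 in sesquiα2 and 5.06 in Col-0. CDF5, of the same family, was higher by 3.72 in SnRK1α1-OE, 3.75 in sesquiα2 and 4.53 in Col-0. FKF1, which degrades CDF proteins, averaged 0 to 2.32 units at EN against 1328 to 1609 at ED over the 3 genotypes. GI, its partner, averaged 6.28 to 12.8 units at EN against 1636 to 2316 at ED.

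Among the AP2-like and TEM repressors of FT, 5 of 8 passed between the times in SnRK1α1-OE, 6 in sesquiα2 and 7 in Col-0. TEM2 was higher at EN by 3.69 in SnRK1α1-OE, 4.27 in sesquiα2 and 4.16 in Col-0 on the log2 scale. SMZ was lower at EN (-1.47 in SnRK1α1-OE, -1.39 in sesquiα2 and -1.15 in Col-0). TEM1 was higher at EN (0.92 in SnRK1α1-OE, 0.89 in sesquiα2 and 1.34 in Col-0), as was SNZ (0.50 in SnRK1α1-OE, 0.80 in sesquiα2 and 0.91 in Col-0). TOE3 was lower (-1.23 in SnRK1α1-OE, -0.46 in sesquiα2 and -0.75 in Col-0). Of the other SPL genes, 7 of 11 tested passed in SnRK1α1-OE, 5 in sesquiα2 and 7 in Col-0. SPL12 was higher at EN (1.2 in SnRK1α1-OE, 0.88 in sesquiα2 and 0.94 in Col-0). SPL6 (0.98 in SnRK1α1-OE, 0.85 in sesquiα2 and 0.94 in Col-0) and SPL10 (0.95 in SnRK1α1-OE, 0.93 in sesquiα2 and 0.71 in Col-0) were higher too. SPL16 (AT1G76580, taken here as an SPL gene) was lower at EN (-0.75 in SnRK1α1-OE, -0.65 in sesquiα2 and -1.11 in Col-0), and SPL11 was lower (-0.87 in SnRK1α1-OE, -0.90 in sesquiα2 and -0.62 in Col-0). In each genotype the absolute log2 fold change of SPL9 exceeded that of these 5 genes, a difference that was not tested.

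In the gibberellin list 10 of 14 tested genes passed in SnRK1α1-OE, 10 of 14 in sesquiα2 and 7 of 13 in Col-0. GA2OX1, which inactivates gibberellin, was lower at EN in SnRK1α1-OE (-2.82) and sesquiα2 (-2.98), at 1.90 to 7.52 units at EN against 21.7 to 58.2 units at ED in these lines. It met the filter only through the ED libraries, where it is high. GA3OX1, which makes active gibberellin, was higher at EN (1.89 in SnRK1α1-OE, 1.51 in sesquiα2 and 1.28 in Col-0). Its relative GA3OX2 was lower (-2.42 in SnRK1α1-OE, -3.69 in sesquiα2 and -3.72 in Col-0). RGL1, a DELLA repressor of gibberellin responses, was lower at EN (-1.0 in SnRK1α1-OE, -1.05 in sesquiα2 and -0.87 in Col-0), as was RGL2, another DELLA gene, in sesquiα2 (-0.89) and Col-0 (-1.11). The gibberellin receptor gene GID1B was higher in SnRK1α1-OE (1.11) and sesquiα2 (1.0). In the autonomous pathway list 4 of 9 passed in SnRK1α1-OE, 4 in sesquiα2 and 2 in Col-0, with FVE lower at EN (-0.43 in SnRK1α1-OE, -0.57 in sesquiα2 and -1.06 in Col-0). FCA, an RNA-binding repressor of FLC expression, was higher at EN in SnRK1α1-OE (0.89) and sesquiα2 (0.53). FY, which works with FCA, was lower in sesquiα2 (-0.34) and Col-0 (-0.77), although the call in sesquiα2 was lost under 6 of 13 alternatives. ELF6 (0.46, call lost under 5 of 13 alternatives) and FLK (0.44, lost under 2) were higher in SnRK1α1-OE, and FLD (0.25, lost under 8) was higher in sesquiα2. Of the FRI and vernalization genes 3 of 12 passed in SnRK1α1-OE, 4 in sesquiα2 and 2 in Col-0, with VEL1 higher at EN (0.85 in SnRK1α1-OE, 0.62 in sesquiα2 and 0.78 in Col-0). CLF, a Polycomb methyltransferase gene, was higher in SnRK1α1-OE (0.63) and sesquiα2 (0.35), and VRN1 was lower in sesquiα2 (-0.28) and Col-0 (-0.46). FES1 (0.41, SnRK1α1-OE) and FRL2 (0.41, sesquiα2) were higher, but their calls were lost under 8 and 7 of 13 alternatives, and those of CLF and VRN1 in sesquiα2 under 5 each. In the FLC clade 1 of 5 passed in each genotype: MAF5 was lower at EN in SnRK1α1-OE (-0.77), and MAF3 was higher in sesquiα2 (0.40) and Col-0 (0.49). The call was lost under 6 of 13 alternatives for MAF5 (adjusted p up to 0.242), under 5 of 13 for MAF3 in sesquiα2 (up to 0.112) and under 2 of 14 for MAF3 in Col-0 (up to 0.0683).

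Few genes of the FT family and of meristem identity could be tested. The FT partner FD was lower at EN in SnRK1α1-OE (-1.38) and Col-0 (-1.51), FTIP1, which helps FT leave companion cells, was higher in SnRK1α1-OE (0.62, call lost under 3 of 13 alternatives), and BFT passed as lower in sesquiα2. BFT had 0 to 6 reads at EN against 15 to 38 reads at ED in sesquiα2, the group through which it met the filter, so no fold change is given. None of 5 tested genes of the MADS and meristem identity list passed in any comparison. Of 17 miR156, miR157 and miR172 precursors, 1 or 2 had enough reads to be tested. MIR156D was higher at EN in sesquiα2 (1.54, adjusted p = 0.0194) and in Col-0 (1.66, adjusted p = 0.0316), at 11.3 to 33.5 units at EN against 2.72 to 16.6 units at ED over all genotypes. The call was lost under 1 of 13 alternatives in sesquiα2 and 2 of 10 in Col-0. FKF1 and GA2OX1 where tested, CDF5 in SnRK1α1-OE and Col-0, and GI and MIR156D in Col-0 also met the filter only through the time at which they are high. The MIR156D values are precursor reads from poly(A) libraries and do not measure the mature microRNA.

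Against Col-0, 0 list genes passed in SnRK1α1-OE at either time, 1 of 93 passed in sesquiα2 at ED (1.08%, beside 0.419% of all genes) and 7 of 90 in sesquiα2 at EN (7.78%, beside 2.95%). At EN the AP2-like genes TOE1, SNZ and TOE3 were higher in sesquiα2, while AP2, TOE2 and SMZ did not pass. TOE1 was at 3372 to 4171 in sesquiα2 against 2211 to 2338 in Col-0 (0.71, adjusted p = 0.00866), SNZ at 2248 to 2793 against 1505 to 1574 (0.69, adjusted p = 0.00993) and TOE3 at 187 to 218 against 105 to 119 (0.83, adjusted p = 0.0347). SNZ was also the 1 list gene that passed at ED, at 1297 to 1607 in sesquiα2 against 792 to 861 in Col-0 (0.80, adjusted p = 0.0360). TEM1 was lower in sesquiα2 at EN, at 1892 to 2144 against 2896 to 3315 in Col-0 (-0.66, adjusted p = 0.0101).

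The remaining calls at EN were FBH3, SPL10 and SPL16. FBH3, a helix-loop-helix activator of CO, was at 610 to 776 in sesquiα2 against 317 to 385 in Col-0 (0.97, adjusted p = 0.00708). SPL10 was at 693 to 856 in sesquiα2 against 464 to 539 in Col-0 (0.66, adjusted p = 0.0261). SPL16 was at 689 to 798 in sesquiα2 against 422 to 495 in Col-0 (0.68, adjusted p = 0.0206). FBH3 and TOE1 kept their call at EN under 12 of 13 alternatives, SNZ under 11, TEM1, SPL10 and SPL16 under 9 each and TOE3 under 7, while SNZ at ED kept its call under 6.

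Over the 18 libraries the genes with the pattern most like each member were found by Pearson's r on log2(value + 1) among 20338 genes. These r values describe libraries that fall into 2 times of day and share them. SPL9 was closest to AT3G18210 (r = 0.983), UGT79B7 (0.978) and ATHB-5 (0.976), and SVP to FLZ6 (0.976), AT3G23170 (0.973) and FLZ8 (0.960). FT was closest to Y3IP1 (0.924), AT1G21350 (0.922) and SPDSYN2 (0.918). It met the filter here through ED libraries and had at most 5 reads in any EN library. The r values of FT, also that with SVP below, therefore rest in part on its level near 0 at EN. CO was closest to AT4G23840 (0.912), AT5G52410 (0.884) and AT3G18640 (0.872), and SPL4 to AT5G16650 (0.862), GRXS5 (0.852) and AXY4 (0.847). For the other 4 genes the highest r was lower. FUL was closest to AT4G30996 (0.842), ZEU1 (0.833) and RPL18AC (0.827), SOC1 to AT3G50140 (0.813), AT4G12500 (0.802) and JAL34 (0.802), and SPL5 to AT3G33528 (0.806), BXL3 (0.787) and AT1G22440 (0.786). FLC was closest to CYP82C2 (0.728), AT2G01422 (0.719) and MAF4 (0.702), the last a member of the FLC clade. Among the members themselves SVP and SPL9 were the most alike (0.899), followed by SVP and FT (0.817).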

How the data were processed

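RNA-seq libraries from 18 pools of rosettes were aligned by the authors with HISAT2 to TAIR10, counted with featureCounts and normalized with edgeR. The deposited signal is an edgeR pseudo-count rescaled by a TMM factor per library, with no log. Whole reads were recovered by inverting that calculation: 99.9995% of 590994 values were returned within 0.1%, with a fitted dispersion of 0.0232. Values were tested as log2(value + 1) with limma 3.58.1 (trend, robust) on the libraries of each comparison, after a filter that asked for 3 or more libraries at 10 or above and a total of 15 or more per gene, and p-values were Benjamini-Hochberg adjusted over all genes tested. Differences of effects used 12 libraries. edgeR 4.0.16 (quasi-likelihood) on recovered reads was added after the data were seen, as was the fit without replicate 1 of both Col-0 groups. Alternatives were other pseudocounts (0.125 and 4), no filter, median-ratio scaling, all 18 libraries in one fit, a block for the replicate number, and each library left out in turn. Scripts were tested on simulated data.

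The members and gene lists were chosen with earlier results of these data known. All 10 members were named, and of each list the 4 genes with the largest change that passed in each comparison; a gene so named was given in every genotype where it passed. A member's fold change was given where its unadjusted p was under 0.05, except against groups at 0 reads. All 18 library columns were used. SE is limma's moderated error.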

Additional observations from a re-analysis of the deposited data

Results flagged for a closer look

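GI, the photoperiod gene that works with FKF1, had an effect of sesquiα2 that differed between the times (effect at EN minus effect at ED, log2 1.36, SE 0.274, adjusted p = 0.0471 in limma). GI was at 10.7 to 14 in sesquiα2 against 5.79 to 6.83 in Col-0 at EN, and at 1465 to 1816 in sesquiα2 against 1780 to 2746 in Col-0 at ED. The call held in 4 of 20 alternatives (adjusted p 0.00908 to 0.137) and was not made by edgeR (adjusted p = 0.116), and the cause was not tested.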

How the results depend on the processing

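No member passed against Col-0 in SnRK1α1-OE, or in either test of a difference of effects, under any alternative. For sesquiα2 at ED 1 member (SVP) passed with all 18 libraries in one fit, and leaving out 1 library gave 0 to 1; at EN leaving out 1 library gave 0 to 2. Between EN and ED, leaving out 1 library gave 2 to 3 members in SnRK1α1-OE, 2 to 3 in sesquiα2 and 1 to 3 in Col-0, where all 18 libraries in one fit gave 5 and the fit without replicate 1 of both Col-0 groups gave 4. FT was among the 5 of the fit on all 18 libraries, where it met the filter through ED libraries, in which it is high. FT could not be tested in sesquiα2 once an ED library was left out, since the filter needs 3 libraries. Replicate numbers paired no comparison, as correlations of deviations between same-numbered libraries ran from -0.393 to 0.503 and exceeded 0.1 in all 3 pairs nowhere. With the replicate block, 3 members passed in SnRK1α1-OE, 3 in sesquiα2 and 3 in Col-0, and 0 in the other comparisons. Of 55 member fold changes not printed (-0.49 to 0.63), 28 changed sign in some alternative and 0 passed in any. Read depth limits FT, SPL3 and FLC.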
